A study of Arabidopsis thaliana with 3 samples.

Results

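The sites described here are the adenosines listed as N6-methyladenosine (m6A) in Arabidopsis seedlings whose 5′ neighbour was A or G and whose 3′ neighbour was G, that is the middle adenosine of AAG or GAG. They were taken by their 3-letter motif alone and numbered 6404 of the 120269 listed sites (5.32%), with 3585 AAG and 2819 GAG sites. All samples came from 1 group. It comprised whole Col-0 seedlings without any treatment, collected 7 days after being placed on Murashige and Skoog plates, in 3 biological replicates. CAM-seq was run on their polyadenylated RNA. In this chemical assay unmodified adenosine is deaminated to inosine and read as G, whereas m6A is still read as A. The level of a site is the percentage of reads at that position that remained A.

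m6A is placed on plant mRNA by a nuclear writer complex built around the methyltransferase-type proteins MTA and MTB. It is bound by reader proteins with a YTH domain, the ECT family, and removed by ALKBH demethylases. The usual target of the writer is an adenosine with a purine on its 5′ side and C on its 3′ side, and most m6A in plants lies in the 3′ part of the mRNA. AAG and GAG keep the 5′ purine of that consensus and have G in place of C. AAC and GAC sites were therefore the main comparison, with AAU and GAU and with AAA and GAA as the other 3′ neighbours. The deposited table held 1 count of covering reads and 1 count of unconverted reads per site for all replicates together. No spread over replicates could be calculated and no difference was tested. Intervals are Wilson 95% intervals, which cover counting error only. A site was listed only with at least 20 reads and a binomial p-value under 0.001 against a background of 1% unconverted reads, so adenosines with lower levels were not seen.

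The contexts of the most highly methylated AAG and GAG sites are shown first, since they give the flanking bases the later comparisons turn on. They are the 8 AAG and 8 GAG sites of highest level among those with at least 100 reads, a single gene name and a context listed once. Each run is 21 bases of the deposited RNA context, 5′ to 3′, with TAIR10 coordinates. The capitals mark the 3-letter motif and its middle letter is the methylated adenosine.
MYA2 (AAG, chr5:17657019-17657039, - strand): uguuauaagAAGuuuuagagu
AT5G53620 (AAG, chr5:21785143-21785163, + strand): guauccccgAAGcuaagauau
ARA6 (AAG, chr3:20320898-20320918, + strand): uauaaugugAAGauuugaguu
AT1G20110 (AAG, chr1:6974717-6974737, + strand): uguauaugaAAGucuuuugag
AT1G23440 (AAG, chr1:8324186-8324206, + strand): uaauaaaagAAGucucucucu
AT5G40810 (AAG, chr5:16342429-16342449, + strand): uuguuuagaAAGucuaaugag
PBC1 (AAG, chr1:7628177-7628197, + strand): uuauguaugAAGuuugauuuu
AT4G10430 (AAG, chr4:6454976-6454996, - strand): uguaaauggAAGuggcaguug
RPN8A (GAG, chr5:1738339-1738359, + strand): uguaucaaaGAGucuuuuuuc
MAML-4 (GAG, chr1:6372982-6373002, + strand): augucaaaaGAGuuuggugua
VPS35A (GAG, chr2:7739520-7739540, + strand): uaacuugugGAGuuugaugug
TOC33 (GAG, chr1:448520-448540, - strand): uaauuuaugGAGauuuguuca
PIR121 (GAG, chr5:6097342-6097362, - strand): guaucaaugGAGuuuucuuug
RAD23D (GAG, chr5:15407613-15407633, + strand): uguucauggGAGuugaugugu
STT3A (GAG, chr5:6658357-6658377, + strand): uuuauugcgGAGauuuucaag
COV1 (GAG, chr2:8687495-8687515, - strand): gugucucugGAGucucuucaa

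All 16 of these sites lay in the last exon, within the 3′ UTR, between 63 and 212 nt after the stop codon. At the base after the motif, position +2 counted from the adenosine, 12 of the 16 had U. At the base before the motif, position -2, 12 had G and 4 had A. These shares describe sites picked for their level and were not tested.

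Among the AAG sites with at least 100 reads the highest level was that of MYA2, a myosin of the type that moves organelles along actin. There 93 of 114 reads were unconverted, giving 81.6% (73.5 to 87.6). AT5G53620, annotated as an RNA polymerase II degradation factor, followed with 103 of 127 reads and 81.1% (73.4 to 87.0). These intervals overlapped almost entirely, so no order between both sites can be given. ARA6, a small GTPase of the endosomes, had 124 of 169 reads unconverted and 73.4% (66.2 to 79.5). AT1G20110, a RING/FYVE/PHD zinc finger protein, had 180 of 253 reads and 71.1% (65.3 to 76.4). AT1G23440, a pyroglutamyl peptidase-like protein, had 143 of 201 reads and the same rounded level of 71.1% (64.5 to 77.0). The 3 sites could not be ordered by their intervals. The most deeply covered of the 8 was AT5G40810, a cytochrome C1 family protein of the respiratory chain, with 508 of 722 reads and 70.4% (66.9 to 73.6). PBC1, a beta subunit of the proteasome, had 257 of 371 reads and 69.3% (64.4 to 73.7). AT4G10430, a TMPIT-like protein, had 80 of 120 reads and 66.7% (57.8 to 74.5). All 8 intervals lay above 57%, whereas the median AAG site had a level of 10%.

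The highest GAG sites with at least 100 reads reached further. RPN8A, a subunit of the regulatory particle of the proteasome, had 385 of 414 reads unconverted and a level of 93.0% (90.1 to 95.1). MAML-4, annotated as a methylthioalkylmalate synthase-like enzyme, had 143 of 158 reads and 90.5% (84.9 to 94.2). VPS35A, a subunit of the retromer that sorts vacuolar cargo, had 144 of 162 reads and 88.9% (83.1 to 92.9). The intervals of these 3 sites overlapped with each other and lay above those of the other 5, except that the interval of PIR121 reached into those of MAML-4 and VPS35A. TOC33, a receptor for protein import at the chloroplast envelope, had 367 of 467 reads and 78.6% (74.6 to 82.1). PIR121, a subunit of the WAVE complex that controls actin, had 78 of 100 reads and 78.0% (68.9 to 85.0). RAD23D, a ubiquitin receptor related to the RAD23 repair proteins, had 548 of 709 reads and 77.3% (74.1 to 80.2). This was the most deeply covered of the 8, and its interval lay within that of PIR121. STT3A, a catalytic subunit of the oligosaccharyltransferase, had 99 of 130 reads and 76.2% (68.1 to 82.7). COV1, a membrane protein of vascular patterning, had 311 of 416 reads and 74.8% (70.4 to 78.7). The last 5 could not be told apart by counting error.

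Most AAG and GAG sites were far below these values. AAG sites averaged 13.6% ± 11.6 (SD, 3585 sites) and GAG sites 14.8% ± 13.7 (SD, 2819 sites). The quartiles of both motifs together were 5.88%, 10.1% and 17.5%. The mean was 44.6% over AAC and GAC sites, 24.8% over AAU and GAU sites and 8.55% over AAA and GAA sites. AAG and GAG thus stood between U and A as the 3′ neighbour. A level of at least 20% was found at 1332 AAG and GAG sites, or 20.8% (19.8 to 21.8), against 53.2% of all listed sites. A level of at least 50% was found at 166 sites (2.59%), against 24.7% of all listed sites. Of the 166 sites, 71 were AAG and 95 were GAG. At least 80% was reached by 15 sites (0.23%), 7 AAG and 8 GAG, against 16.96% of AAC and GAC sites. Of these GAG sites, 2 lay in tRNA genes, at levels of 96.0% and 100%.

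**Figure D1:**
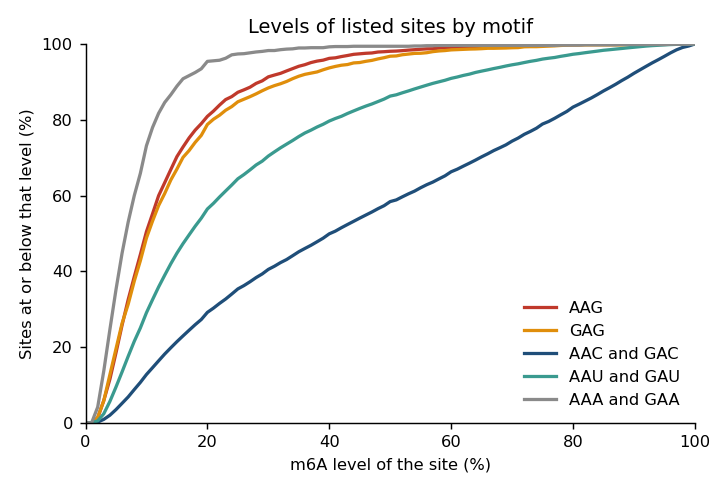
Cumulative share of listed sites (y axis, percent of sites) at or below each m6A level (x axis, percent of reads unconverted), with 1 line per motif. The AAG and GAG lines run close together, between those of AAA and GAA on the left and AAU and GAU on the right, and pass the middle of the y axis near a level of 10%.

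The same order held within genes. In 4037 genes with both kinds of site, the mean level of the AAG and GAG sites was lower than that of the AAC and GAC sites in 3788 and higher in 249, with a mean difference of -34.4 percentage points (quartiles -49.2, -34.8 and -19.9). Against AAU and GAU the mean difference was -10.7 points over 3898 genes, lower in 2992 and higher in 906. Against AAA and GAA it was 3.83 points over 562 genes, higher in 353 and lower in 209. GAG exceeded AAG by a mean of 2.22 points in the 761 genes that held both, but the median difference was 0.60 points and GAG was higher in 417 genes and lower in 343. The mean difference was 1.18 points without sites within 3 nt of another and 5.53 points among sites of at least 20%. Genes are not replicates, and these counts describe the pooled table.

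Depth limited what could be listed. The median depth of AAG and GAG sites was 133 reads (quartiles 64 and 336), with a range from 20 to 46372. The lowest level that could be listed was 20% at 20 reads, 6% at 100 reads and 2.2% at 1000 reads. Of the AAG and GAG sites, 37.1% were within 2 reads of the lowest count that could be listed at their depth, against 12.7% of AAC and GAC sites and 19.3% of all listed sites. The mean level of AAG and GAG sites was 21.4% at depths of 20 to 49 reads, 13.4% at 100 to 199 and 6.67% at 1000 reads or more. AAC and GAC sites went from 48.2% to 36.2% between the same outer depth classes. Mean levels of AAG and GAG sites are therefore means over the listed sites only. Within each depth class AAG and GAG stayed below AAU and GAU and above AAA and GAA.

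**Figure D2:**
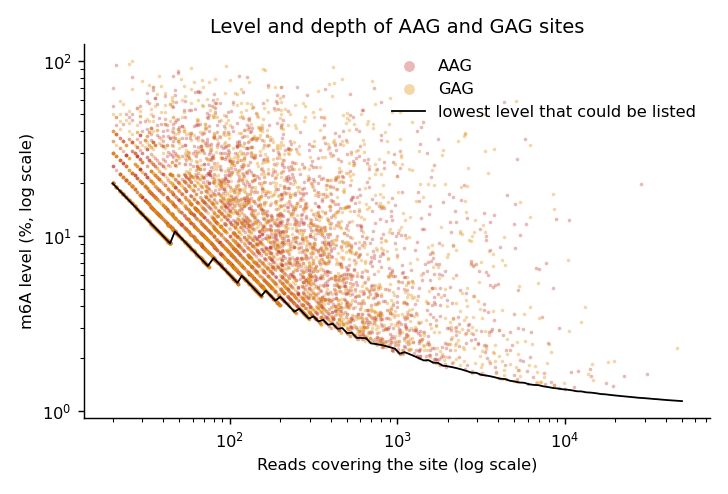
Level of each AAG (red) and GAG (orange) site (y axis, percent, log scale) against the reads covering it (x axis, log scale). The black line is the lowest level that could be listed at a depth, and 37.1% of the sites lie within 2 unconverted reads of it.

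At depths of 1000 reads or more, 37 of 569 AAG and GAG sites (6.50%) had a level of at least 20%. At these depths the share was 57.9% for AAC and GAC, 26.2% for AAU and GAU and 0% for AAA and GAA. The 5 deepest AAG and GAG sites with a level of at least 20% all lay in the 3′ UTR. They were picked for their level and depth, and are shown because their levels are precisely counted, with the motif in capitals as before.
RP1 (GAG, chr1:16268716-16268736, + strand): aauguuaugGAGuuuucuuuu
TPI (AAG, chr3:20556180-20556200, + strand): auuuggcaaAAGuuucucucu
RPS5A (AAG, chr3:3778055-3778075, - strand): uguuuuaugAAGuuuauuucg
AT3G11510 (GAG, chr3:3623599-3623619, - strand): uuguauuugGAGuuuuuggua
AT3G24830 (AAG, chr3:9065948-9065968, + strand): ucacuguugAAGuuuaucacc

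RP1, a protein of the large ribosomal subunit, had 2052 of 6183 reads unconverted and a level of 33.2% (32.0 to 34.4). TPI, the glycolytic triosephosphate isomerase, had 2073 of 5762 reads and 36.0% (34.7 to 37.2). RPS5A, a protein of the small ribosomal subunit, had 1423 of 5167 reads and 27.5% (26.3 to 28.8). None of these 3 intervals overlapped with another. AT3G11510, a ribosomal protein of the S11 family, had 2983 of 5080 reads and 58.7% (57.4 to 60.1). AT3G24830, a ribosomal protein of the L13 family, had 2539 of 4354 reads and 58.3% (56.8 to 59.8). The latter pair could not be separated. All 5 sites had U at position +2, followed by U.

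The bases next to the motif went with both the number of sites and their level. A purine at position -2 was present at 94.3% of AAG and GAG sites, A at 2911 and G at 3128, with mean levels of 12.9% and 16.0%. C at that position was present at 128 sites with a mean of 9.68%, and U at 237 sites with a mean of 7.33%. The mean over both purines was 14.5%, against 8.15% over both pyrimidines. Among sites of at least 20% the difference of 6.33 points turned to -7.98, with 17 pyrimidine sites, and to -0.47 points without the 2 of them in tRNA genes. U at position +2 was present at 50.3% of the sites with a mean level of 15.7%, against 12.9% with A, 11.7% with C and 12.2% with G. The difference of 3.20 points between U and the other bases was 0.63 points among sites of at least 20%. U at +4 was present at 56.1% of the sites, with a mean of 16.1% against 11.3% to 11.8% for the other bases. On the 5′ side, A at -4 went with a mean of 15.7% against 12.8% to 14.0%. SDs over sites were 7.03 to 14.0 in these classes, so the distributions overlapped widely.

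The same preferences were larger when sites were counted per adenosine. Near the stop codon, in the window from 20 nt before to 180 nt after its last base, all adenosines of the annotated transcripts of genes with a listed site were counted, whatever their depth. GGAGU was listed 2514 times per 10000 adenosines (403 of 1603), GAAGU 1664 times (571 of 3432), AGAGU 1280 times (495 of 3866) and AAAGU 1262 times (702 of 5561). With A in place of U at +2, GGAGA was listed 1106 times, GAAGA 493 times, AGAGA 345 times and AAAGA 328 times. With a pyrimidine at -2 and U at +2 the rates were lower than with a purine, 74.97 for CAAGU, 69.3 for UAAGU, 178 for CGAGU and 215 for UGAGU. The adenosines counted for UAAGU and UGAGU include the final adenosines of stop codons. The rates of CGAGU and UGAGU were close to those of purine contexts with G at +2, such as AAAGG with 229 and AGAGG with 239. The next base added to this. With a purine at -2 and U at +2, the rate was 2012 with U at +3 and 1627 with C, against 831 with A and 1156 with G. GGAGU also had the highest mean level, 20.05% ± 15.8 (SD over 584 sites), followed by GGAGA with 17.2% ± 15.2 (454) and GAAGU with 17.1% ± 13.6 (824), among contexts with at least 100 sites. CGAGC had a mean of 36.5%, but over 6 sites of which 2 lay in tRNA genes.

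**Figure D3:**
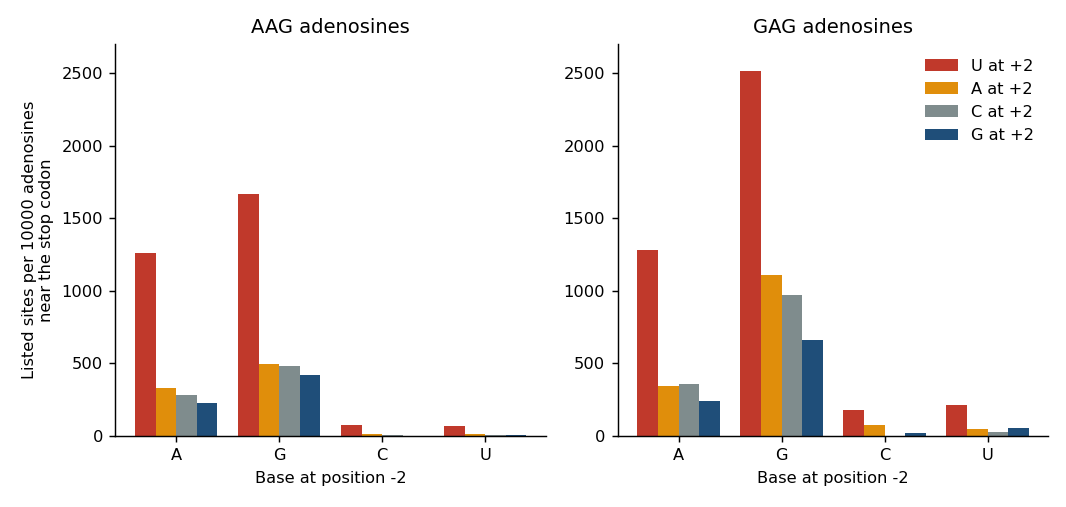
Listed sites per 10000 adenosines in the window around the stop codon (y axis, from 0) by the base at position -2 (x axis) and at +2 (bar colour), for AAG adenosines (left) and GAG adenosines (right). U at +2 gives the tallest bar of each purine group, 1262 and 1664 for AAG and 1280 and 2514 for GAG, and the tallest bar with C or U at -2 is at 215.

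Within genes the flanking bases pointed the same way but by small amounts. GAAG sites exceeded AAAG sites by a mean of 3.38 points in 256 genes, higher in 152 and lower in 103. GGAG exceeded AGAG by 5.23 points in 160 genes, higher in 106 and lower in 54. U at +2 exceeded A at +2 by 2.46 points in 508 genes, higher in 278 and lower in 229. The medians of these differences were 1.20, 2.41 and 0.97 points.

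Set against the other motifs, AAG and GAG were intermediate in number near the stop codon. AAG was listed 389 times and GAG 495 times per 10000 adenosines of the window. The rates were 4802 for AAC, 4679 for GAC, 1639 for AAU and 1915 for GAU. They were 43.6 for GAA and 18.8 for AAA. With G on the 3′ side and a pyrimidine on the 5′ side, CAG was listed 16.97 times and UAG 17.98 times. Other motifs with a 5′ pyrimidine were listed more often, UAC 3746, CAC 2198, UAU 365 and CAU 210 times. The rate of UAU was thus near that of AAG. Within the coding sequence AAG was listed 6.73 times and GAG 7.02 times per 10000 adenosines. There GAA was listed 6.18 times, AAA 3.83 times and UAG 0.81 times, so that the gap to GAA was smaller than in the window. AAC was listed 80.4 times and GAC 72.7 times.

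Of the 6197 AAG and GAG sites placed on a coding transcript, 5408 were 3′ UTR sites (87.3%), 717 coding sites and 72 sites of the 5′ UTR. The last exon held 92.5% of them, and the window around the stop codon 69.0% (67.8 to 70.1). The shares of AAC and GAC sites were 89.5% for the 3′ UTR, 96.7% for the last exon and 71.8% for the window. Over all listed sites they were 92.4%, 96.9% and 72.0%, each above the share of AAG and GAG. Their median distance from the stop codon was 108 nt for AAG and GAG and 102 nt for AAC and GAC. The 3′ UTR sites had a mean level of 14.9% ± 12.9 (SD, 5408 sites), the coding sites 7.72% ± 6.13 (717 sites) and the 5′ UTR sites 8.37% ± 4.89 (72 sites). Only 25 of the 717 coding sites reached 20%, against 1934 of the 8113 coding sites over all listed motifs. In the 190 genes with sites in both, the 3′ UTR exceeded the coding sequence by a mean of 1.36 points, higher in 96 genes and lower in 94. The 3′ UTR sites of these genes had a mean of 8.92%.

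Along the transcript the density of AAG and GAG sites rose later than that of AAC and GAC sites. In the 20 nt that began with the last base of the stop codon, AAG and GAG were listed 55.4 times per 10000 adenosines, and AAC and GAC 3057 times. AAG and GAG reached 222 from 20 to 39 nt, 468 from 40 to 59 nt and their highest value of 756 from 100 to 119 nt. AAC and GAC reached 4594, 5683 and, at the highest from 80 to 99 nt, 6377. The mean level of AAG and GAG sites was 5.34% to 9.26% in the bins from 200 to 21 nt before the end of the coding sequence, 11.8% in the last bin before it, 11.6% in the first bin after it, and 15.1% from 100 to 119 nt. It was between 14.8% and 18.8% in all bins from 120 to 399 nt, where the standard error over sites was between 0.57 and 3.74.

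**Figure D4:**
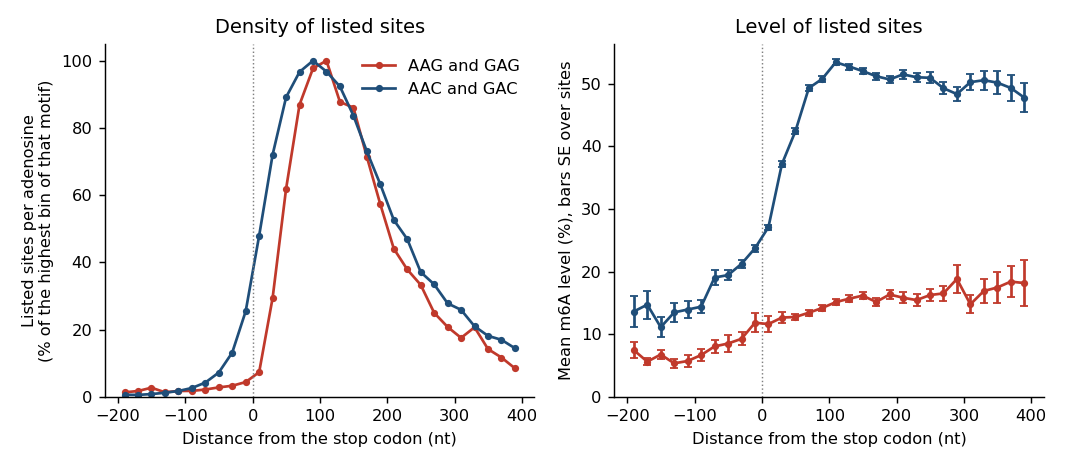
Left, listed sites per adenosine in 20-nt bins (y axis, percent of the highest bin of that motif) by distance from the stop codon (x axis, nt). Right, mean level of the listed sites (y axis, percent, bars are the standard error over sites). AAG and GAG (red) are at 55.4 per 10000 in the bin that begins with the last base of the stop codon, whose final adenosines are counted. They peak at 756 from 100 to 119 nt, and stay below AAC and GAC (blue) in level throughout.

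AAG and GAG sites often had another listed site shortly downstream. At 1016 of them (15.9%) the adenosine 2 nt downstream was also listed, and at 577 (9.01%) the one 3 nt downstream. The same offset of 2 nt held a listed site for 2.85% of AAC and GAC sites and 4.91% of AAU and GAU sites. Downstream of AAG and GAG the neighbour at 2 nt was a GAU site in 565 cases, GAG in 199, GAC in 177 and GAA in 75. The mean level at the first adenosine was 14.0%, and at the neighbour 38.0%.

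**Figure D5:**
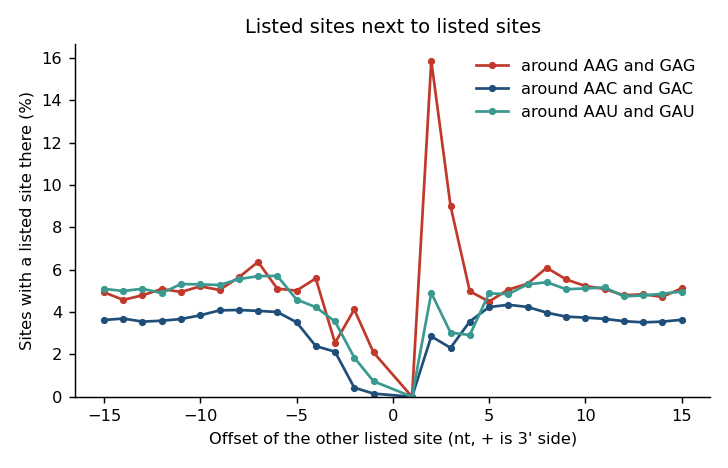
Share of sites with another listed site at a given offset (y axis, percent, x axis in nt, positive on the 3′ side) around AAG and GAG (red), AAC and GAC (blue) and AAU and GAU (green). The red line reaches 15.9% at 2 nt and 9.01% at 3 nt and is near 5% at most other offsets, and all lines are at 0 at 1 nt, where the motif has no A.

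The 3 deepest pairs at this offset show the arrangement. The capitals mark the AAG, and the adenosine that follows it directly is the neighbour.
TCTP (AAG, chr3:5669553-5669573, - strand): cuguguuggAAGauucucaag
PSBW (AAG, chr2:13019219-13019239, - strand): uguuaaguaAAGacuaaaaac
PGK1 (AAG, chr3:4061076-4061096, - strand): uauacuuaaAAGaguuucuuu

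TCTP, which encodes the translationally controlled tumour protein, was read 28640 times at its AAG adenosine, where 5715 reads were unconverted, a level of 19.95% (19.5 to 20.4). The GAU adenosine 2 nt on had 16207 of 26598 reads unconverted, 60.9% (60.3 to 61.5). PSBW, photosystem II subunit W, had 202 of 11936 reads and 1.69% (1.48 to 1.94) at AAG and 4726 of 10883 reads and 43.4% (42.5 to 44.4) at the GAC that followed. PGK1, a phosphoglycerate kinase, had 122 of 8281 reads and 1.47% (1.24 to 1.76) at AAG and 1491 of 8516 reads and 17.5% (16.7 to 18.3) at GAG. In all 3 pairs the first adenosine was lower, with no overlap of the intervals.

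Over all pairs the order depended on the neighbour's motif. Of the 684 AAG and GAG sites followed by AU, the GAU adenosine was listed at 565 (82.6%). The first adenosine was lower in 448 of them and higher in 114, and without overlap of intervals in 300 and 35. Of the 204 sites followed by AC, the GAC was listed at 177 (86.8%), with a mean level of 78.8%, and the first adenosine was lower at 176. Of the 375 followed by AG, the next GAG was listed at 199 (53.1%), and the first adenosine was lower in 127 of them and higher in 70. Of the 675 followed by AA, the GAA was listed at 75 (11.1%). There the order was the opposite, with the first adenosine higher in 46 and lower in 29, and without overlap of intervals in 12 and 0. Per 10000 adenosines of any depth in the stop-codon window, GAU was listed 1915 times, GAC 4679, GAG 495 and GAA 43.6. The adenosines here lay beside a listed site, so how far these shares exceed the usual listing of each motif was not tested. The order beside GAU, GAC and GAA went with the mean levels over all listed sites. These were 24.8% for AAU and GAU, 44.6% for AAC and GAC and 8.55% for AAA and GAA, against 14.1% for AAG and GAG. Across the 565 pairs with GAU the levels at both adenosines had a Spearman correlation of 0.23 and a Pearson correlation of 0.20, given as a description of positions that share the same libraries and reads.

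Seen from the neighbour, an upstream AAG or GAG was listed more often beside GAU sites of high level. Among GAU sites preceded by a purine in the positions that make AAG or GAG 2 nt upstream, 8.94% of those under 10% in level had the upstream site listed (81 of 906). The share was 10.6% from 10% to 25%, 18.3% from 25% to 50%, 33.0% from 50% to 75% and 41.8% (51 of 122, 33.4 to 50.7) from 75% upwards. The interval of the last class lay above those of the first 3. Beside GAC sites the share was 0.84% at the lowest levels and 12.2% (127 of 1039) from 75% upwards. With a pyrimidine in that position, so that the upstream motif is CAG or UAG, it was at most 9.52% (2 of 21) beside GAU and 0 of 635 beside GAC from 75% upwards, which allows a share of up to 0.60%. Limited to GAU sites with at least 100 reads, the share for purines was 9.56% under a level of 10% and 49.3% from 50% upwards. At that depth it did not rise further in the top class, with 51.3% (81 of 158, 43.5 to 58.9) from 50% to 75% and 42.6% (20 of 47, 29.5 to 56.7) from 75% upwards. The intervals of both classes overlapped. Whether both adenosines were unconverted in the same reads was not tested.

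Compared with the nearest listed site of the same gene, at a median distance of 7 nt, AAG and GAG sites were more often the lower than the higher. The intervals overlapped for 2855 of 6194 sites (46.1%). The interval lay wholly below that of the neighbour for 2775 of 6194 sites (44.8%), against 29.6% of all listed sites. It lay wholly above for 564 sites (9.11%), against 28.3% of all listed sites. For AAC and GAC the shares were 15.7% below and 42.2% above.

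AAG and GAG sites were found in 4246 of the 15198 genes with any listed site (27.9%), and 69.4% of these genes had 1 such site. In 4209 of them another motif was listed too, and the highest level of the gene was at an AAG or GAG site in 100 (2.38%). In 37 genes AAG or GAG was the only listed motif. The share of genes with such a site rose with the median depth of the gene's listed sites, from 9.19% in the lowest of 5 depth classes of about equal size to 46.8% in the highest, whereas the share with a site of at least 20% was between 4.37% and 10.4% in all 5.

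The gene groups with the most deeply covered sites also had the largest shares. Ribosomal protein genes held an AAG or GAG site in 184 of 310 (59.4%) and nuclear photosynthesis genes in 22 of 42 (52.4%), with median gene depths of 1180 and 2162 reads against 83 over all genes. No photosynthesis gene had a site of at least 20%, against 7.59% of all genes, and the median level over their 60 sites was 3.64%. Among ribosomal protein genes 8.06% had a site of at least 20%. Kinase genes held one in 237 of 834 (28.4%) and heat shock and chaperone genes in 55 of 178 (30.9%), near the 27.9% of all genes. Transcription factor and zinc finger genes held one in 103 of 479 (21.5%, 18.1 to 25.4), with a median gene depth of 65 reads. The part of depth in these shares was not tested.

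The 5 genes with the most AAG and GAG sites encode abundant chloroplast proteins. DRT112, a copper protein of the cupredoxin superfamily, had 11 sites, RPL15, a ribosomal protein, had 10, and PGK1, CA1 and PSBO1 had 9 each. Their levels were low, with medians of 2.30% in DRT112, 5.66% in RPL15, 6.73% in PGK1, 3.01% in the carbonic anhydrase CA1 and 3.64% in PSBO1, a subunit of the oxygen-evolving complex. In CA1 and PSBO1 all 9 sites were in the coding sequence. The deepest of all AAG and GAG sites was in the 3′ UTR of DRT112, with 1065 of 46372 reads unconverted and 2.30% (2.16 to 2.44). The highest of the 48 levels in these genes was 17.5%, in PGK1.

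Genes of the m6A machinery held AAG and GAG sites about as often as all genes did. Of 24 genes in the list of writers, readers and erasers, 22 had a listed site and 6 had an AAG or GAG site (27.3%, 13.2 to 48.2), against 27.9% of all genes. FIP37, a subunit of the writer complex, had AAG sites at 36.3% (29 of 80 reads) and 20.8% (11 of 53 reads), 39 and 87 nt after the stop codon. It was the only member of the list with a site of at least 20%, 1 of 22 genes (4.55%) against 7.59% of all genes. ECT7, a YTH-domain protein, had GAG sites at 17.8% (11.7 to 26.1, 19 of 107 reads) and 5.81% (3.19 to 10.4, 10 of 172 reads). ECT3, a reader, had an AAG site at 9.92% (7.25 to 13.4, 36 of 363 reads). The remaining ones were a GAG site of MTB (EMB1691) at 9.86% (7 of 71 reads), an AAG site of HAKAI (AT5G01160) at 5.88% (6 of 102 reads) and a coding AAG site of ECT8 at 13.8% (4 of 29 reads). The counts at the last 3 were too small for an order among them.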

How the data were processed

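CAM-seq was performed on polyadenylated RNA of 3 seedling samples of 1 group. The authors trimmed reads with Cutadapt, took a random barcode from read 1, mapped reads to TAIR10 with hisat2-3n and removed reads with many mismatches. They also removed reads with over 3 unconverted adenosines, and reads in which the unconverted share of the adenosines was above a set limit. Both filters on unconverted adenosines can lower levels where methylated adenosines lie close together, the latter also in reads with few adenosines. The table the authors deposited holds raw counts per site, covering and unconverted reads, pooled over the samples, and a binomial p-value. The stated limits differ between 0.001 and 0.0001 in the sources; the table held values up to the former. Depth per replicate is unknown here.

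Levels were calculated as 100 times unconverted over covering reads (Python 3.11.15, pandas 2.3.3, scipy 1.17.1). Sites were placed on the longest coding transcript of their gene in the RefSeq annotation of TAIR10. All 120204 nuclear sites fell on A, and 118919 contexts were identical to the reference. Scripts were tested on simulated data. Named sites were the 8 highest per motif with at least 100 reads, the 5 deepest of at least 20%, the 5 genes with most sites, machinery genes, and the 3 deepest pairs. The members and lists were chosen with earlier results of these data known. Alternatives were depths of 50 and 100 reads, p-values under 0.0001, levels of at least 20%, and leaving out repeated contexts, sites within 3 nt of another, and tRNA sites. No cell type markers were used.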

Additional observations from a re-analysis of the deposited data

Results flagged for a closer look

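GAG sites in 2 tRNA-Ile genes stood out because they lie outside the polyadenylated mRNA that the comparisons concern and are far above the background of 1% unconverted reads. The site in AT1G07100 had 24 of 25 reads unconverted, a level of 96.0% (80.5 to 99.3), and the site in AT4G36635 had 26 of 26 reads, a level of 100% (87.1 to 100). Both share the same context, with C before and after the GAG, so reads of the genes may not have been told apart. Whether the unconverted reads at these tRNA sites come from m6A was not tested. In its ribosomal RNA comparison the paper marks sites of m1A, another methylated adenosine, apart from m6A sites. Its supplement also reports that the free nucleoside 1-methyladenosine was deaminated to 1-methylinosine under the conditions for adenosine analogues. Which modification, if any, the tRNA sites carry was not tested. Both tRNA sites were named after their values were seen.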

How the results depend on the processing

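Of 83 repeats of the results, 54 stayed within their own error (for the number of sites, within 1.5 times), 28 moved by more and 1 changed sign. With a depth of at least 50 reads the mean level was 11.8% for AAG and 13.4% for GAG, the difference to AAC and GAC within genes was -35.3 points, 70.8% of sites lay in the stop-codon window and 16.6% had a level of at least 20%. With at least 100 reads 3845 sites were left, the means were 10.2% and 12%, the difference to AAC and GAC was -35.8 points, and the shares were 72.5% in the window, 13.8% at 20% or more and 27.0% of genes. With p-values under 0.0001 the means were 15.3% and 16.7%, and the shares were 72.5% in the window, 25.9% at 20% or more and 24.3% of genes. Without sites within 3 nt of another, 22.5% of genes had a site. Among the 1332 sites of at least 20% the means were 32.3% and 35.5%, GAG exceeded AAG by 5.53 points, and 72.4% lay in the window. The differences were -30.5 points to AAC and GAC, -12.6 to AAU and GAU and 14.2 to AAA and GAA. Of the genes that still held a listed site, 8.71% had an AAG or GAG site, which is 7.59% of all 15198 genes. Among these sites U at +2 exceeded the other bases by 0.63 points in place of 3.20. There the difference of purines over pyrimidines at -2 turned from 6.33 to -7.98 points, over 17 sites with a pyrimidine, of which 2 were the tRNA sites. Without these, an alternative chosen after seeing the data, it was -0.47 points over 15 sites, and over all levels it was 6.83. No paired analysis was possible because the samples form 1 group and the table has no columns per replicate.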

Other observations

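The word UGUA was looked up, on the RNA strand only, in the 31-nt contexts after the values had been seen. It was present in 25.5% of the contexts of AAG and GAG sites, in 23.0% of those of AAC and GAC sites and in 25.7% of those of AAU and GAU sites. Its share rose with the level of AAG and GAG sites, from 18.5% (16.4 to 20.8) of sites under 5% to 26.9% of sites from 10% to 20%, 34.3% (31.6 to 37.1) from 20% to 50% and 45.8% (38.4 to 53.4, 76 of 166 sites) from 50% upwards. Over the outer level classes the share went from 19.2% to 24.7% at AAC and GAC sites and from 23.6% to 30.2% at AAU and GAU sites. With at least 100 reads it went from 18.5% to 41.4% (29 of 70 sites) at AAG and GAG sites. At that depth it went from 19.2% to 23.9% at AAC and GAC sites and from 23.6% to 27.5% at AAU and GAU sites. The share was not split by transcript region, although coding AAG and GAG sites had lower levels than those of the 3′ UTR. The word lay mostly on the 5′ side. It began 9 nt before the adenosine, at position -9, in 2.90% of AAG and GAG sites and in 5.93% of those with a level of at least 20%. A match describes letters and was not tested as a binding site.

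AAG sites listed on the chloroplast genome numbered 12, with levels of 2.47% to 12.9%. Several lay in ATCG00920, ATCG00950, ATCG01180 and ATCG01210, and whether these encode mRNA was not checked. A site of ATCG00920 with 3602 reads and 2.86% resembled one of ATCG01210 with 3665 reads and 2.95%. Whether such sites are copies of the same sequence was not checked either, so the number may count some sites more than once. The mitochondrial genome had 2 sites, at 7.81% and 11.4%. GAG sites in 18S ribosomal RNA had levels of 3.28% to 5.24%. On the nuclear chromosomes AAG and GAG made up 5.18% to 5.44% of the listed sites of each chromosome, with mean levels of 13.4% to 14.8%. Sites with no gene name numbered 162 and had a median level of 13.6%.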
